A study of Sus scrofa with 34 samples.

Results

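The liver RNA-Seq data of weaned piglets were examined for an interaction between oxidized oil and a phytogenic feed additive (PFA), a blend of plant essential oils. The interaction is the effect of PFA in piglets fed the oxidized oil minus the effect of PFA in piglets not fed it, on the log2 scale. Of 34 libraries in the series, 24 came from liver and 23 entered the fit. All 25880 genes of the liver count table were candidates, and 13831 of them had enough reads to be tested. The 4 diets were a basal diet (control, 6 pigs), the basal diet with the commercial PFA Digestarom (PFA, 6 pigs), the basal diet with oxidized rapeseed oil (OO, 6 pigs) and the oil with PFA (OO + PFA, 5 pigs). Below, oil means this oxidized oil, and the basal diet itself held a little fresh rapeseed oil. The oil diets had the oxidized oil as added fat and a higher calculated energy, and no diet held as much fresh oil. The piglets were crossbred, of both sexes and about a month old at the start, and the diets were fed for 28 days. The labels give day 28 as an age, while the methods give it as the length of feeding. All pigs of a diet shared 1 pen, and an effect of the pen and one of the diet cannot be told apart. Pigs are named below by diet and by a replicate number in the order of the sample records, which is a name only.

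The liver keeps blood glucose up between meals by making glucose and by releasing it from glycogen, and the enzymes for this are switched on by glucagon, glucocorticoids and stress signals and switched off by insulin. Immediate early genes encode short-lived transcription factors and signaling proteins whose RNA appears quickly after such signals. Dietary fatty acids, oxidized ones included, are known ligands of the nuclear receptor PPAR-alpha, which drives genes of fatty acid oxidation in liver.

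The authors deposited whole-number counts of read pairs per Ensembl gene, and between 19839171 and 42446834 read pairs per fitted library lay on genes. Levels are given as CPM, read pairs scaled to the total on genes of each library with edgeR's TMM factors. All 10 hepatocyte markers examined passed the filter, albumin (ALB) with a median of 2333453 counts, and the lowest, SERPINA1, with a median of 51. The library of OO + PFA replicate 1, which the study left out, had 48.3% of its counts on 10 genes and 36.6 read pairs with several alignments per 100 on genes. In bulk liver, fewer cells of a type and less RNA per cell cannot be told apart.

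No gene was called for the interaction at an adjusted p of at most 0.05 (0% of the genes tested, smallest adjusted p = 0.0505, quasi-likelihood test of edgeR, Benjamini-Hochberg adjusted). At an unadjusted p under 0.05 there were 1881 genes, of which 1089 (7.87%) were higher and 792 (5.73%) lower, where higher means that PFA raised the level more, or lowered it less, with oil than without. DESeq2's Wald test on the same counts called 150 genes, 133 of them higher, and limma-voom called 0. Neither PFA effect alone gave a call in edgeR (0% in each). PFA against control had 1522 genes at an unadjusted p under 0.05 and a smallest adjusted p of 0.166, and OO + PFA against OO had 1176 and 0.0900. DESeq2 called 43 and 31 genes in these comparisons.

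The effect of PFA had opposite signs with and without oil in 8088 genes, or 58.5% of those tested. The comparisons PFA against control and OO + PFA against OO share no pig. An unadjusted p under 0.05 in both was found for 154 genes, of which 132 had opposite signs and 22 the same sign. Of the 132, 107 were lower with PFA in pigs without oil and higher with PFA in pigs with oil, and 25 were the reverse. Seen from PFA against control, 719 of the 997 genes lower at an unadjusted p under 0.05 (72.1%) were higher with PFA under oil, beside 46.5% of all genes. Of the 525 genes higher with PFA without oil, 396 (75.4%) were lower under oil, beside 53.5% of all genes. Seen from OO + PFA against OO, 424 of the 556 higher genes (76.3%) were lower with PFA without oil, beside 46.2% of all genes. The 620 genes lower in OO + PFA had the opposite sign without oil in 53.4%, beside 53.8% of all genes, so 3 of these 4 sets stood above their background and this one did not. Across genes, the log2 effects had a Pearson correlation of -0.12 and a Spearman correlation of -0.15, as a description over 13831 genes that are not independent of each other.

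**Figure D1:**
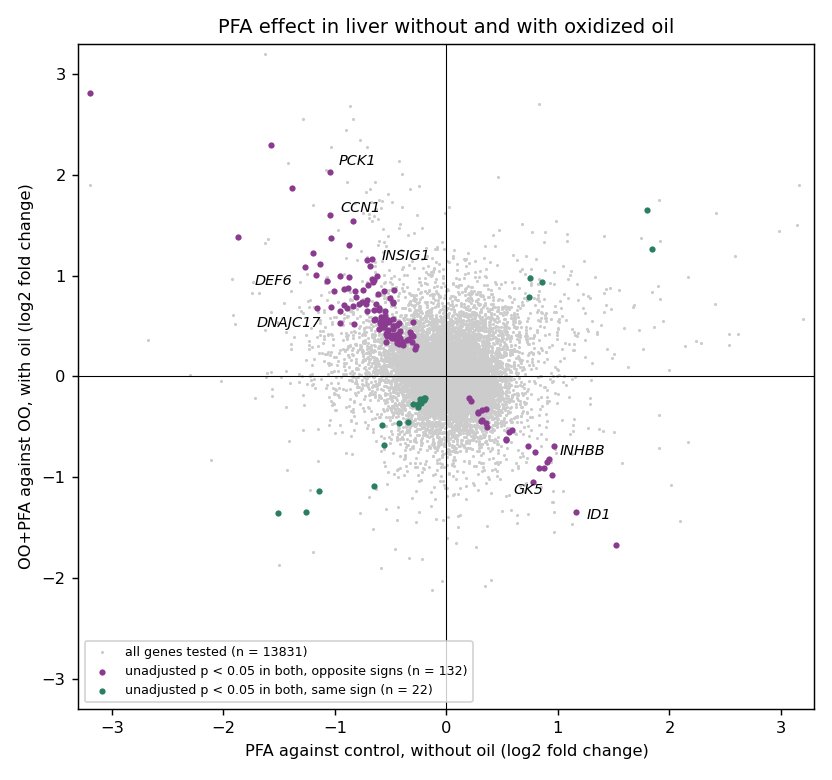
Each point is a gene, with its log2 fold change of PFA against control on the x axis and of OO + PFA against OO on the y axis. Purple points, the 132 genes with opposite signs at an unadjusted p under 0.05 in both, lie mostly at the upper left, and 4 genes beyond 3.2 log2 units are drawn at the edge.

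These counts depended on a few pigs. The genes with opposite signs in both comparisons numbered 65 without OO + PFA replicate 6, 76 without OO replicate 2 and 204 without OO replicate 5. Those with the same sign numbered 12 without control replicate 1, 13 without control replicate 3, 14 without PFA replicate 6, 44 without PFA replicate 3, and 43, 41 and 40 without OO replicates 3, 5 and 6. The library titles take the forms PigLiv and PL, whose meaning the labels do not give, and only 1 of the 5 OO + PFA libraries had the form PL. In the 14 PigLiv libraries, 39.8% of genes had opposite signs, and 6 genes with opposite and 40 with the same sign had an unadjusted p under 0.05 in both comparisons. In the 9 PL libraries these values were 67.3%, 321 and 17, but there OO + PFA replicate 6 is the only library of its diet and is assumed to vary like the other diets. The excess of opposite signs was thus seen in the PL libraries and not in the PigLiv libraries. With a term for the title form over all 23 libraries, 59.1% of genes had opposite signs, and 129 had opposite and 29 the same sign in both comparisons. Such a term does not let the PFA effect differ between the forms, and calls for the interaction were 0 with it and without it.

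The leading gene with a symbol was PCK1 (ENSSSCG00000007507, Sscrofa11.1 chromosome 17, 57930507 to 57936523), the cytosolic phosphoenolpyruvate carboxykinase that commits precursors to glucose production. Its level ranged from 184 to 1010 CPM in control pigs (median 714), from 164 to 412 with PFA (median 355) and from 309 to 730 with OO (median 411). The 5 OO + PFA pigs had 823, 1080, 1455, 1620 and 4073 CPM. Every OO + PFA pig lay above every OO pig, whereas the control and PFA groups overlapped through control replicate 1. Genes named here and below for a small p were chosen on these same pigs, so a lack of overlap in them is no separate support. The share of all genes tested without overlap was not counted, either between OO and OO + PFA pigs or between control and PFA pigs. The log2 effect of PFA was -1.05 (standard error 0.37) without oil and 2.03 (0.39) with oil, and the interaction was 3.07 (0.54), an 8.41-fold ratio of the fold changes (adjusted p = 0.0505, edgeR's quasi-likelihood test). Without OO + PFA replicate 6, which had the highest level, the interaction was 2.53 (adjusted p = 0.114), and over 40 alternatives it stayed between 2.04 and 4.94 with adjusted p from 3.61e-05 to 1. Within the PigLiv libraries it was 2.04, and within the PL libraries, with OO + PFA replicate 6 as the only pig of its diet, 4.94.

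G6PC1 (ENSSSCG00000036449), the catalytic subunit of glucose-6-phosphatase that frees glucose at the last step, had the same order of means. The medians were 343 CPM in control pigs (99.1 to 1401), 265 with PFA (119 to 414) and 251 with OO (162 to 478). The OO + PFA pigs had 557, 738, 926, 1861 and 3065 CPM, all above the OO pigs, and control replicate 6 was within their range. The interaction was 3.12 (standard error 0.71, adjusted p = 0.134, edgeR), with -0.77 without oil and 2.35 with oil, and it was 2.41 without control replicate 6 and 2.64 without OO + PFA replicate 6. IGFBP1, a hepatic binding protein of insulin-like growth factors that insulin represses, had mean levels of 134 ± 113, 58.4 ± 29.2, 124 ± 128 and 404 ± 213 CPM (SD, n = 6, 6, 6 and 5) in control, PFA, OO and OO + PFA pigs. Its interaction was 2.90 (0.86), not called (adjusted p = 0.179, edgeR), and OO replicate 3 at 373 CPM lay among the OO + PFA pigs.

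Of 33 genes of gluconeogenesis, glycolysis and the urea cycle tested, 9 were higher and 2 lower in the interaction at an unadjusted p under 0.05 (27.3% and 6.06%, beside 7.87% and 5.73% of all genes), and 23 had opposite PFA effects (69.7%, beside 58.5%). The median interaction was 0.20, beside -0.05 over all genes tested, and 0.11 without OO + PFA replicate 6. This list and those below were written with earlier results of these data known, so their shares are no separate support. The members named next were chosen after their values were seen. GYS2, the liver glycogen synthase, had an interaction of 1.41 (standard error 0.32) and ARG1, the arginase of the urea cycle, one of 1.29 (0.30). Both had PFA effects of opposite sign, -0.56 and 0.85 for GYS2 and -0.51 and 0.78 for ARG1. GLS2, the liver-type glutaminase, ASS1, which forms argininosuccinate, and TAT, the tyrosine aminotransferase, had interactions of 0.86, 0.78 and 0.89. A lower member was SDS, serine dehydratase, at -1.40 (0.58). FBP1 and the alternative isoenzyme PCK2, other members of the list, had interactions of 0.21 and -0.07.

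SLC25A25 (ENSSSCG00000005636, chromosome 1, 268531752 to 268575195), a mitochondrial carrier of ATP-Mg and phosphate, ranged from 12.3 to 41.4 CPM in control pigs (median 22.2), from 13.6 to 22.6 with PFA (median 14.98) and from 17.2 to 34.9 with OO (median 20.5). The OO + PFA pigs had 37.4, 54.6, 60.1, 77.7 and 161 CPM, again all above the OO pigs. Its interaction was 2.25 (standard error 0.42, adjusted p = 0.0979, edgeR), with -0.58 without oil and 1.67 with oil, and 1.81 without OO + PFA replicate 6. A gene without a symbol, ENSSSCG00000029719, had the smallest p, an interaction of 3.26 (0.54, adjusted p = 0.0505, edgeR), but it rests on 1 to 23 counts per library and on 1 to 4 in OO pigs. The other genes named without a symbol were ENSSSCG00000028682 at 1.95, ENSSSCG00000015531 at -1.42 and ENSSSCG00000004687 at -0.85.

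The immediate early genes had the largest median interaction of the 20 pathway lists, 1.36, with a median PFA effect of -0.48 without oil and 1.02 with oil. Of 22 tested, 14 were higher at an unadjusted p under 0.05 (63.6%, beside 7.87% of all genes) and 0 lower. The list was chosen with earlier results of these data known, so this share is a description. With PFA, 16 were lower without oil and higher under oil, so 72.7% had opposite signs, beside 58.5% of all genes. No member was called, and 3 of the 25 genes of the list were not tested. KLF6 (ENSSSCG00000035212, chromosome 10, 66488445 to 66497830), a zinc finger transcription factor, had medians of 8.69 CPM in control pigs (5.8 to 9.26), 6.71 with PFA (3.76 to 8.47) and 5.75 with OO (4.74 to 6.42). The OO + PFA pigs had 7.32, 7.69, 10.6, 17.3 and 17.9 CPM, above all OO pigs. Its interaction was 1.44 (standard error 0.32, adjusted p = 0.134, edgeR).

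CCN1 (ENSSSCG00000006940), a matricellular protein induced by growth factors and by mechanical strain, had an interaction of 2.65 (0.60, adjusted p = 0.134, edgeR), with means of 22.1 ± 14.96, 10.7 ± 4.33, 16.8 ± 13.1 and 51.0 ± 23.2 CPM (SD, n = 6, 6, 6 and 5). OO replicate 5 at 43.4 CPM overlapped with the OO + PFA pigs. ATF3, a transcription factor of stress responses, was at 7.65, 7.70, 16.0, 41.6 and 59.8 CPM in the OO + PFA pigs and between 4.36 and 11.6 in OO pigs, with an interaction of 2.36 (0.73). Named after their values were seen, FOSB, NR4A1 and FOS had the largest interactions of the list, 6.15 (1.58), 3.84 (1.01) and 3.13 (1.10), and MYC and JUN had 2.08 and 1.87. FOS means were 77.5, 36.7, 31.3 and 130 CPM in control, PFA, OO and OO + PFA pigs. IER2, EGR1 and JUNB, which belong to the same list, had interactions of 0.03, 1.07 and 0.83 with standard errors that left them above an unadjusted p of 0.05.

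The level of the list varied widely between pigs of a diet. Its score, the mean over genes of log2 CPM minus its mean over pigs, ranged from -0.50 to 0.98 in control pigs, -1.11 to 0.17 with PFA, -0.63 to 0.63 with OO and -0.06 to 1.80 with OO + PFA, so the groups overlapped. The median interaction of the list stayed between 1.05 and 1.61 when any 1 pig was left out, and was 1.31 in the PigLiv and 1.88 in the PL libraries. It was 1.25 with a term for the share of read pairs on no gene. The list of NF-kB and inflammatory genes had a median of -0.08. At an unadjusted p under 0.05, 4 of its 32 genes were higher and 1 lower (12.5% and 3.1%, beside 7.87% and 5.73% of all genes). In it, the chemokine CXCL2 had an interaction of 3.31 (0.76) at a low level, with 8.72 CPM in OO + PFA replicate 3 and 0.699 to 2.68 in the other pigs of that diet. NFKBIA, the inhibitor of NF-kB, had 0.87 (0.29).

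Among the other genes with the smallest p, DEF6 (ENSSSCG00000001538, chromosome 7, 31191788 to 31216436), a signaling protein of lymphocytes, was nearly mirrored between the arms. Control pigs had 4.26 to 7.40 CPM (median 4.87) and PFA pigs 0.551 to 3.56 (median 2.30). OO pigs had 0.936 to 2.58 (median 1.83), and the OO + PFA pigs 2.83, 3.31, 3.44, 4.46 and 4.68. Neither pair of groups overlapped, but DEF6 was chosen for its p in these same pigs. The PFA effects were -1.27 (standard error 0.33) and 1.09 (0.34), with an interaction of 2.35 (0.47, adjusted p = 0.132, edgeR). DNAJC17, a J-domain protein, had -0.96 and 0.53, with an interaction of 1.49 (0.31), and XRRA1 had -0.89 and 0.88, with 1.76 (0.38). Over 40 alternatives the interaction ranged from 1.24 to 4.27 for DEF6, 0.70 to 2.87 for DNAJC17 and 1.03 to 3.05 for XRRA1. PLEKHA6 and BSDC1 had interactions of 1.36 and 0.98 with effects of like size and opposite sign in the arms. FST, the activin-binding protein follistatin, had an interaction of 2.18 (0.48), mostly from its effect with oil (1.56).

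INSIG1 (ENSSSCG00000016420, chromosome 18, 2885494 to 2898758), which holds the sterol-regulated transcription factors in the endoplasmic reticulum, had means of 317 ± 71.5, 198 ± 64.8, 183 ± 33.8 and 391 ± 275 CPM (SD, n = 6, 6, 6 and 5), and an interaction of 1.78 (0.40). OO + PFA replicate 6 had 876 CPM and the other pigs of that diet 211 to 332, and without it the interaction was 1.24. Within the PigLiv libraries it was 0.93. The list of cholesterol synthesis and uptake had a median of -0.12 over 24 genes. At an unadjusted p under 0.05, 2 were higher and 1 lower (8.33% and 4.17%, beside 7.87% and 5.73% of all genes). FDPS, an enzyme of the mevalonate pathway, had 0.74 (0.34). LPIN1, a phosphatidate phosphatase and coactivator, had 1.17 (0.33) and MLXIPL, the carbohydrate response factor ChREBP, 1.08 (0.47), in a fat synthesis list with a median of 0.11. For MLXIPL the sign reversed to -0.20 within the PigLiv libraries and to -0.01 with a term for the share of read pairs on no gene.

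**Figure D2:**
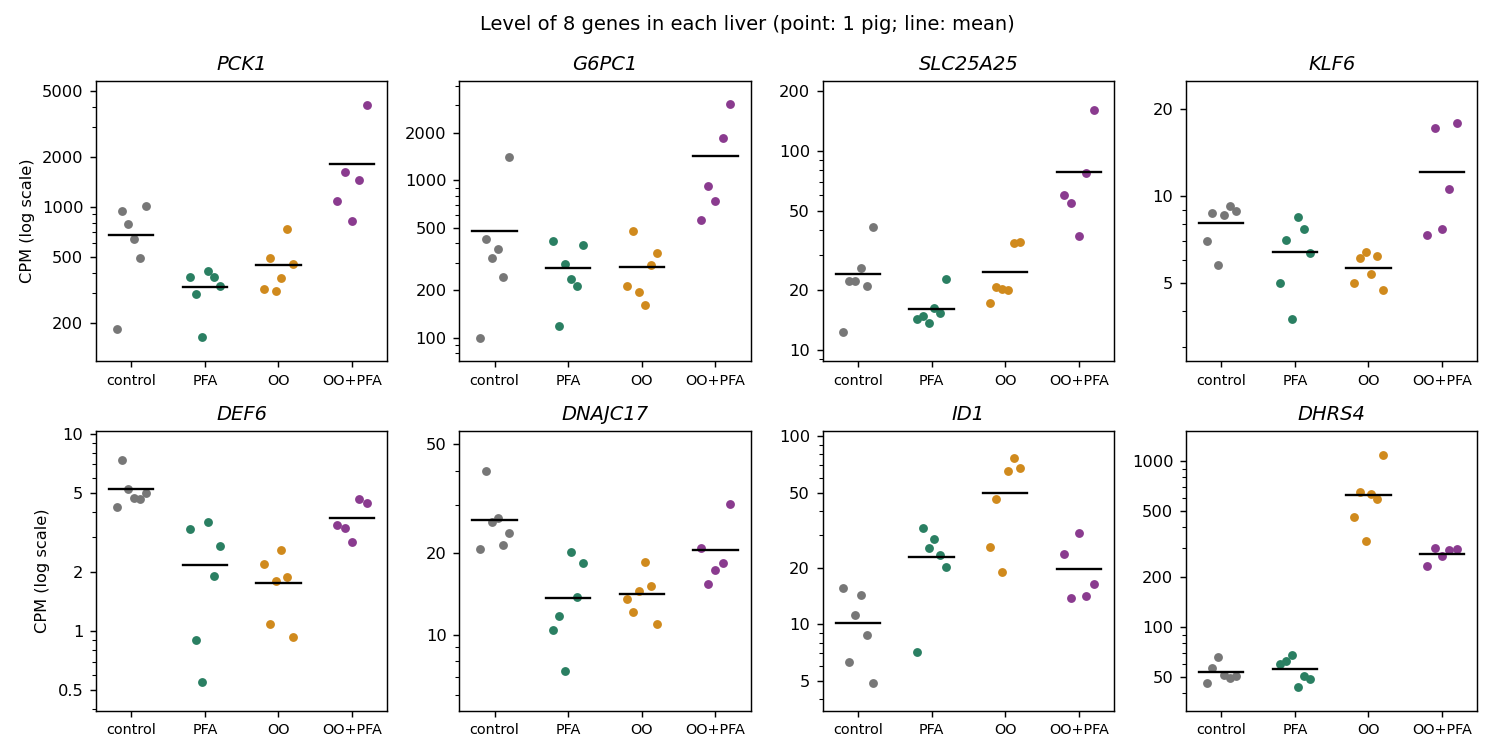
CPM on a log axis in each pig for 8 genes by diet, with a point for each pig and a line at the mean. PCK1, G6PC1, SLC25A25, KLF6 and DEF6 had all OO + PFA pigs above all OO pigs, and DHRS4 had all of them below. The genes shown were chosen by their p for the interaction in these same pigs.

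In the lower direction, ID1 (ENSSSCG00000037016, chromosome 17, 35316518 to 35317742), an inhibitor of basic helix-loop-helix transcription factors and a target of bone morphogenetic protein signals, had the smallest p. It ranged from 4.86 to 15.7 CPM in control pigs (median 10.04), from 7.12 to 32.6 with PFA (median 24.5) and from 19.0 to 76.4 with OO (median 55.9). The OO + PFA pigs had 13.8, 14.2, 16.4, 23.6 and 30.8 CPM, overlapping with OO replicates 1 and 3. Its PFA effects were 1.16 (standard error 0.36) and -1.34 (0.38), and the interaction was -2.51 (0.53, adjusted p = 0.134, edgeR), with -2.21 in the PigLiv and -3.02 in the PL libraries. INHBB, the beta B subunit of inhibins and activins, had effects of 0.92 and -0.82 and an interaction of -1.74 (0.47). FST, which binds activins, thus differed in the other direction.

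GK5, a glycerol kinase family member, had effects of 0.83 and -0.91 with an interaction of -1.74 (0.38). RIF1, which regulates the timing of DNA replication, LNPEP, an aminopeptidase, and MNDA, a nuclear protein of myeloid cells, had -1.65, -1.92 and -2.005. RIF1 and LNPEP were each spread widely within PFA and OO pigs, from 5.74 to 16.9 and from 4.20 to 16.2 CPM for RIF1, but narrowly within control pigs (4.56 to 7.43) and OO + PFA pigs (3.79 to 6.57). In PFA pigs LNPEP had 8.13, 5.66 and 9.85 CPM in PL libraries and 2.93, 2.36 and 3.22 in PigLiv libraries. In OO pigs it had 8.64, 5.13 and 7.43 in PL and 3.18, 2.22 and 2.08 in PigLiv libraries. RIF1 was likewise higher in every PL than in every PigLiv library of each of these diets. Over 40 alternatives the interaction ranged from -2.56 to -0.28 for RIF1 and from -3.25 to -0.01 for LNPEP. The tyrosine kinase FER, the actin nucleation subunit ACTR3 and the dynein light chain DYNLL1 had smaller interactions of -0.76, -0.64 and -0.58. TUBA1B, an alpha tubulin whose reads may be shared with near-identical tubulin genes, had -1.01 (0.25), and every OO + PFA pig (39.8 to 90.5 CPM) lay below every OO pig (99.2 to 160).

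A gene with a high level in pigs fed the oil showed a different shape. DHRS4 (ENSSSCG00000002013, chromosome 7, 75242121 to 75255594), a peroxisomal dehydrogenase/reductase, was between 44.0 and 67.8 CPM in all 12 pigs without oil. OO pigs had 332 to 1088 CPM (median 612), and the OO + PFA pigs 234, 270, 291, 295 and 298. Every OO + PFA pig lay below every OO pig and above every pig without oil. The PFA effect was 0.06 (standard error 0.19) without oil and -1.17 (0.20) with oil, and the interaction was -1.23 (0.28, adjusted p = 0.134, edgeR), between -1.36 and -0.999 over 40 alternatives. Without oil the PFA effect was smaller than its standard error.

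PEX11A, a protein of peroxisome division, had 15.2 ± 3.44, 19.6 ± 2.66, 37.8 ± 8.12 and 26.6 ± 5.46 CPM (SD, n = 6, 6, 6 and 5) in control, PFA, OO and OO + PFA pigs. Its PFA effects were 0.36 and -0.50 and the interaction -0.87 (0.23). SLC27A2, a very long-chain acyl-CoA synthetase and fatty acid transporter, had -0.68 (0.26), VNN1, the pantetheinase, -1.03 (0.45) and the superoxide dismutase SOD1 -0.45 (0.18). MGLL, monoglyceride lipase, had -0.82 (0.36). CPT1A, which carries acyl groups into mitochondrial oxidation, had an interaction of -0.18 (0.21) and overlapping OO (172 to 267 CPM) and OO + PFA pigs (160 to 241). NNAT, neuronatin, a small membrane protein (ENSSSCG00000007336), had 0 to 13 counts in each of the 12 pigs without oil. OO pigs had 3.57 to 11.7 CPM (median 7.67), and the OO + PFA pigs 1.17, 1.38, 1.61, 2.23 and 3.44, all below the OO pigs. Its PFA effect with oil was -1.90 (0.39), and the interaction of -1.31 (0.72, adjusted p = 0.426, edgeR) rests on an effect without oil near the limit of counting. Over 31 genes of fatty acid oxidation the median interaction was -0.19, with 23 of 31 lower, beside 7602 of all 13831 genes. At an unadjusted p under 0.05, 1 was higher and 3 lower (3.23% and 9.68%, beside 7.87% and 5.73%). The median interaction was -0.09 over 29 PPAR-alpha targets outside oxidation, with 4 lower (13.8%, beside 5.73%) and 0 higher at that p. With a term for the share of read pairs on no gene the oxidation median was 0.02.

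Interferon-stimulated genes had the lowest median interaction of the pathway lists, -0.71, from a median PFA effect of 0.08 without oil and -0.61 with oil. Of 42 tested, 37 were lower, beside 7602 of all 13831 genes. At an unadjusted p under 0.05, 15 of the list were lower (35.7%, beside 5.73% of all genes) and 0 higher, and no member was called. PSMB9, an immunoproteasome subunit, ranged from 10.3 to 34.8 CPM in OO pigs, and the OO + PFA pigs had 6.56, 6.90, 7.91, 10.04 and 10.54 CPM. Only OO replicate 3 lay within the OO + PFA range. PSMB9 had a PFA effect of -0.25 without oil and -1.35 (standard error 0.26) with oil, and an interaction of -1.10 (0.35, adjusted p = 0.208, edgeR). IFIT2, an antiviral protein that binds RNA and ribosomal factors, had 0.38 and -1.02, with -1.40 (0.45). RSAD2 and CXCL10, named after their values were seen, had -1.84 and -1.19.

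Of the interferon-stimulated genes, 25 had the order up without oil and down with oil and 1 had the reverse. Over all 13831 genes tested these orders had 4550 and 3538 genes. Opposite signs were thus found in 61.9% of the list, near the 58.5% of all genes. With oil, 41 of 42 were lower with PFA, while without oil 25 were higher and 17 lower. The PFA effect without oil was small beside the spread. List scores ranged from -0.13 to 0.24 in control pigs, -0.53 to 0.72 with PFA, -0.42 to 1.22 with OO and -0.50 to 0.09 with OO + PFA. The median interaction was -0.65 without OO + PFA replicate 6, -0.50 without OO replicate 4, -0.53 without PFA replicate 1, -0.81 in the PigLiv and -0.83 in the PL libraries. Markers of T and natural killer cells also had a lower interaction, in all 12 tested of 15 (median -0.54, 1 at an unadjusted p under 0.05). Their median PFA effect was below 0 in both arms, -0.17 without oil and -0.81 with oil. Opposite signs were found in 2 of the 12 (16.7%, beside 58.5% of all genes). The summed level of these markers was 37.8 to 116 CPM in control, 35.0 to 79.4 in PFA, 56.6 to 130 in OO and 41.9 to 83.6 in OO + PFA pigs. CD3D, CD3E, CD8A and LCK were all detected. The part of these cells in the interferon result was not tested. Kupffer cell markers had a median of -0.31, with 10 of 11 lower and 0 at an unadjusted p under 0.05, B and plasma cell markers -0.40 with 7 of 10 lower, and neutrophil markers -0.52 with 6 of 6 lower. The Kupffer median PFA effect was 0.29 without oil and -0.02 with oil. Control replicates 2 and 3 scored -1.37 and -1.21 for these markers, and the other control pigs -0.31 to 0.38. For endothelial markers these replicates scored -1.75 and -1.24, and the other control pigs 0.24 to 0.52. Endothelial, cholangiocyte, hepatocyte and stellate cell markers had medians of -0.30, -0.29, -0.22 and -0.21, and red blood cell precursors 0.14. At an unadjusted p under 0.05, 2 of 10 hepatocyte markers (20%) and 1 of 8 cholangiocyte markers (12.5%) were higher, beside 7.87% of all genes. In both of these lists 0 were lower at that p.

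Cell cycle genes were lower as a list, with a median interaction of -0.63 from 0.35 without oil and -0.29 with oil. Of 30 tested, 29 were lower, beside 7602 of all 13831 genes, and 9 were lower at an unadjusted p under 0.05 (30.0%, beside 5.73%). With PFA, 26 were higher without oil and lower under oil, so 86.7% had opposite signs, beside 58.5% of all genes. MCM6, a subunit of the replicative helicase, had a median of 14.6 CPM in control pigs (13.1 to 19.9), 22.0 with PFA (14.7 to 36.5), 19.1 with OO (10.95 to 33.0) and 16.6 with OO + PFA (9.56 to 19.0), with overlap in both arms. Its interaction was -1.09 (standard error 0.35, adjusted p = 0.213, edgeR). CCND1, the cyclin that starts the passage through G1, had -0.80 (0.28). The cell cycle median stayed between -0.83 and -0.48 when any 1 pig was left out and was -0.56 and -0.60 in the PigLiv and PL libraries. Without OO + PFA replicate 2 it was -0.48 and without OO + PFA replicate 5, which had the highest score of that diet, -0.83.

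**Figure D3:**
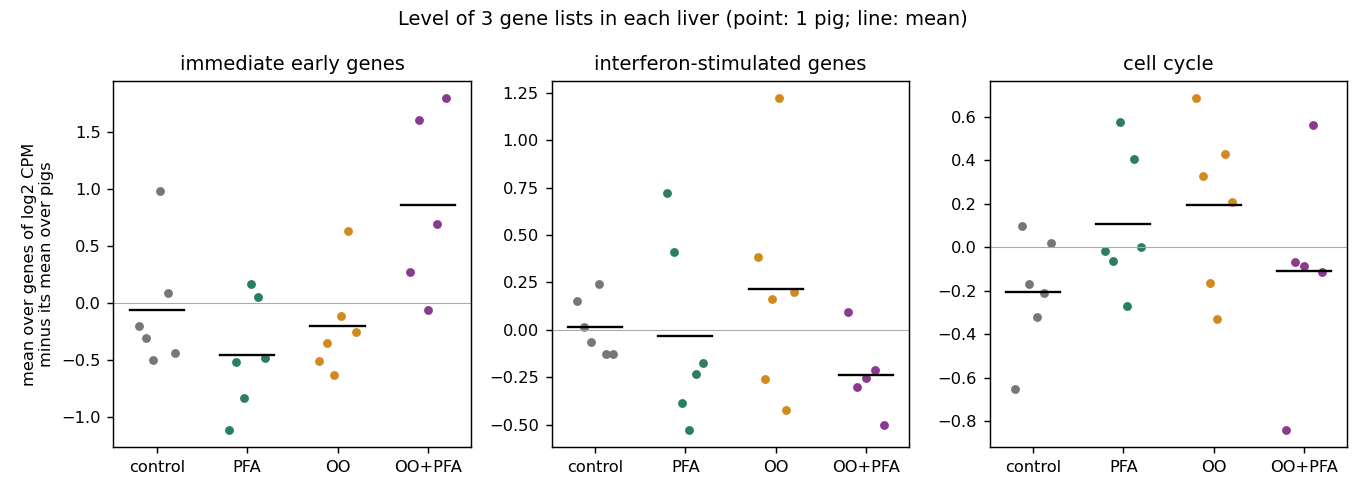
Score of 3 gene lists in each pig by diet, the mean over genes of log2 CPM minus its mean over pigs, with a line at the mean. OO + PFA pigs reach 1.80 for immediate early genes and lie at or below 0.09 for interferon-stimulated genes, and all 3 lists overlap between diets.

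Clock genes had a median interaction of 0.42, from -0.23 without oil and 0.23 with oil. Of 18 tested, 6 were higher at an unadjusted p under 0.05 (33.3%, beside 7.87%) and 0 lower. NFIL3, a repressor of clock output, was at 37.4 ± 6.57, 33.6 ± 5.46, 29.7 ± 9.54 and 53.4 ± 24.3 CPM (SD, n = 6, 6, 6 and 5) in control, PFA, OO and OO + PFA pigs, with an interaction of 1.00 (standard error 0.32, adjusted p = 0.208, edgeR), and the groups overlapped. PER1 and PER2, named after their values were seen, had 1.65 and 0.88. The core activators CLOCK and BMAL1 had 0.15 and 1.09, both above an unadjusted p of 0.05, and the hour of sampling by diet was not given in the sources used here. The clock median was 0.15 in the PigLiv and 0.67 in the PL libraries, and 0.17 with a term for the share of read pairs on no gene.

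In the remaining lists, too, no gene was called. Bile acid synthesis and transport had a median of 0.16 with 4 of 18 genes higher (22.2%, beside 7.87% of all genes) and 0 lower at an unadjusted p under 0.05, SLC27A5, a bile acid-CoA ligase, at 1.58 (0.50) among them, and ABCC3, a basolateral exporter, at 0.45. Acute phase proteins had 0.01 with 3 of 19 higher (15.8%) and 0 lower, ITIH3 and ITIH1, heavy chains of the inter-alpha-trypsin inhibitors, at 1.36 and 1.17. The growth hormone axis had 0.18 with 2 higher and 1 lower of 19 (10.53% and 5.26%), STAT5B at 0.40, and its median was 0.09 without control replicate 3 and 0.42 without OO replicate 5. Cytosolic ribosomal proteins had -0.18, with 39 of 41 lower, beside 7602 of all 13831 genes. At an unadjusted p under 0.05, 3 of the list were lower (7.32%, beside 5.73% of all genes). RPL10, which has pseudogenes that can share its reads, was at -0.34. The proteasome had -0.18, PSMD13 at -0.28 and PSMA1 at -0.47. The unfolded protein response and heat shock list had -0.33, with 22 of 28 genes lower but 3 higher and 2 lower at an unadjusted p under 0.05 (10.7% and 7.14%), and BAG3, a co-chaperone, at 0.70. Respiratory chain subunits had -0.08, with 0 of 45 at an unadjusted p under 0.05 and NDUFV2 at -0.24 and COX6A1 at 0.31. Xenobiotic metabolism had 0.12 with 0 of 21, CYP1A2 at -0.58 and CYP2E1 at 0.39. Nrf2 targets and antioxidant enzymes had -0.04, with 1 higher and 2 lower of 35 at that p (2.86% and 5.71%, beside 7.87% and 5.73%). Collagens and matrix genes had -0.15, with 2 of 32 lower at an unadjusted p under 0.05 (6.25%, beside 5.73%). The matrix protein POSTN was at -0.77 and MMP9 at -1.74 with 3 to 35 counts per library.

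**Figure D4:**
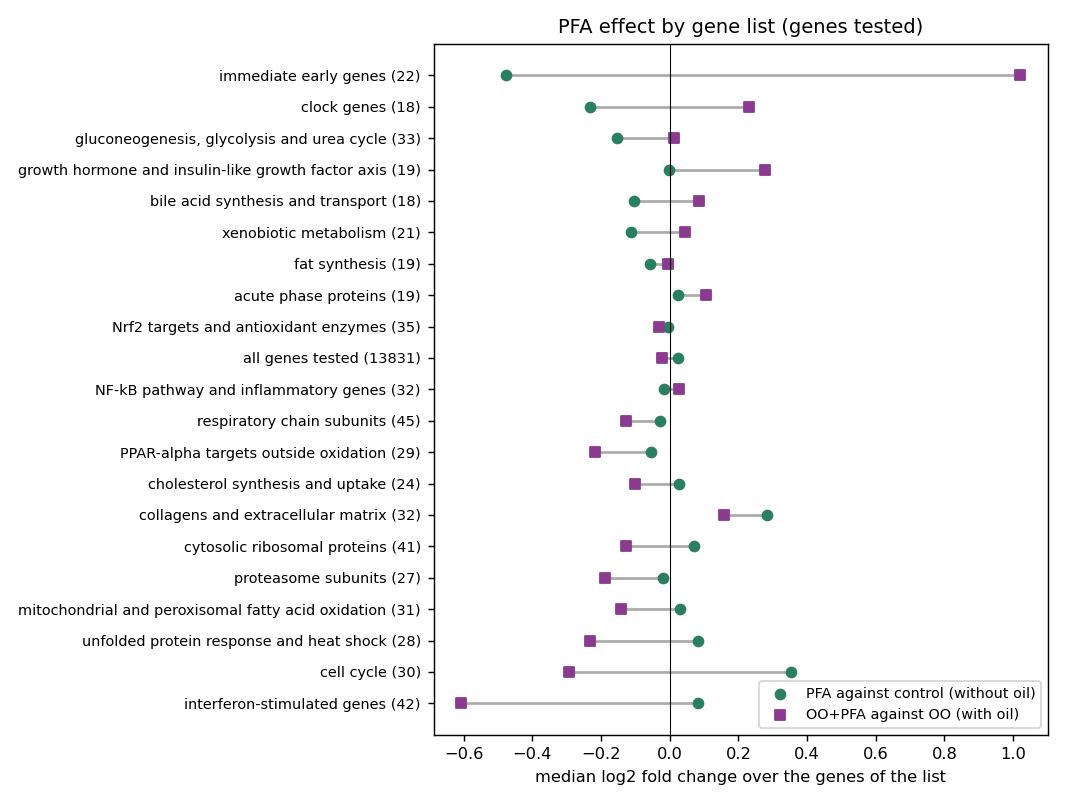
Median log2 fold change over the genes of each list (number tested in parentheses), with a circle for PFA against control and a square for OO + PFA against OO. Immediate early genes run from -0.48 to 1.02, cell cycle genes from 0.35 to -0.29 and interferon-stimulated genes from 0.08 to -0.61, while all genes tested lie at 0.03 and -0.02.

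A measure of the libraries also differed in opposite directions between the arms. Read pairs on no gene per 100 on genes were 16.2 ± 4.07 in control, 11.6 ± 2.59 in PFA, 11.2 ± 1.34 in OO and 13.5 ± 1.78 in OO + PFA pigs (SD, n = 6, 6, 6 and 5). PFA pigs were thus lower by 4.65 than control pigs and OO + PFA pigs higher by 2.31 than OO pigs, a difference of 6.95 (exact permutation test of the PFA labels within the pigs without and with oil, two-sided, p = 0.00110, adjusted p = 0.00439 over 4 measures, n = 23). That test asks whether PFA made any difference in either arm. Depth, the share of the 10 most abundant genes and the slope of gene level on GC content had adjusted p of 0.921, 0.348 and 0.348 by the same exact permutation test. Control replicate 2 had the highest share on no gene, 23.5, and PFA replicate 3 the lowest, 7.54, both in PL libraries. The other PL libraries had 18.51 in control and 9.31 and 13.53 in PFA pigs. They had 11.64, 12.56 and 9.19 in OO pigs and 16.01 in the OO + PFA pig. PigLiv libraries ran from 12.97 to 14.63 in control and 12.08 to 14.25 in PFA pigs. They ran from 9.897 to 12.24 in OO and 11.63 to 14.004 in OO + PFA pigs, with overlap in both arms. The permutation did not keep the title form fixed, and the share was not tested within a form. Genes higher in the interaction at an unadjusted p under 0.05 had a median GC content of 56.3% and lower ones 42.4%, beside 51.3% of all genes with a value. GC content was known for 79.8% of genes tested, 74.7% of the higher ones and 81.3% of the lower ones, so for fewer than 80% of all genes and of the higher ones, and a check of GC over these sets is treated as void.

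With the share on no gene as a term in the fit, 516 genes had an unadjusted p under 0.05 for the interaction in place of 1881, and 50.4% of genes had opposite signs, with 23 genes of opposite and 19 of the same sign in both comparisons. PCK1 had 2.15 and G6PC1 2.67 in that fit. The medians of immediate early, interferon-stimulated and cell cycle genes were 1.25, -0.64 and -0.68. Without control replicate 2 and PFA replicate 3, chosen as the extremes of that share after the data were seen, 1111 genes had an unadjusted p under 0.05, 51.1% of genes had opposite signs, and 56 had opposite and 38 the same sign in both comparisons. The medians of the 3 lists were then 1.22, -0.75 and -0.59, and PCK1 had 2.80. With the GC slope of each library as a term instead, 51.9% of genes had opposite signs, and 133 had opposite and 159 the same sign in both comparisons. RNA integrity per pig was not given in the sources used here.

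**Figure D5:**
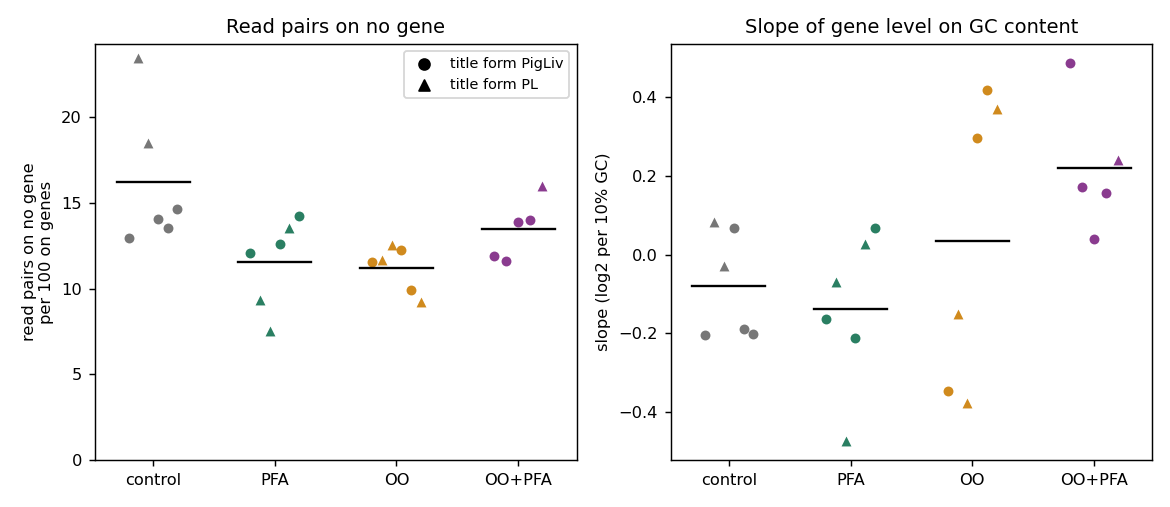
Read pairs on no gene per 100 on genes (left) and slope of gene level on GC content in log2 units per 10% GC (right) in each fitted library by diet, with a line at the mean and the marker shape for the form of the library title. On the left, the means run 16.2, 11.6, 11.2 and 13.5 from control to OO + PFA.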

How the data were processed

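Poly(A) RNA of the livers was sequenced as stranded paired-end libraries. Per the labels and the study's methods, the authors used STAR 2.6.1d for alignment to Sscrofa11.1 and HTSeq for counting over Ensembl genes. The deposited values are raw whole-number counts. Which annotation release and strand setting the counting used is not given in the sources used here. Totals on no gene or with several alignments were left out of library sizes.

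The liver count table was fitted with edgeR 4.0.16 (limma 3.58.1, R 4.3.3) for the 4 diets together, without OO + PFA replicate 1, after filterByExpr and TMM scaling. Contrasts were tested two-sided with the quasi-likelihood test and Benjamini-Hochberg adjustment, called at 0.05. P-values measure the spread between pigs of 1 pen per diet. Depth on genes was 19839171 to 42446834, and a gene at 3 counts is near the limit of counting; replicates differed by more than sampling noise. Symbols were matched for 11733 of the genes tested, and positions and GC content came from RefSeq on Sscrofa11.1. NNAT was matched by the Ensembl ID in the study's primer list. List scores used log2 CPM with a prior count of 2. The fit was also run on simulated counts, drawn gene by gene without differences between pens, title forms or shares on no gene. That run does not show how the fit behaves where such differences exist.

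Genes named are the 12 with the smallest p and a symbol in each direction, the 2 with the smallest p in each of 20 pathway lists, 4 genes that the study measured by PCR, and at most 2 without a symbol in each direction. Some genes that this rule names are not reported here. Lists were written from known genes. Members and lists were chosen with earlier results of these data known. Alternatives were DESeq2 1.42.0, limma-voom, other scaling and filters, robust fitting, all 24 libraries, terms for title form, GC slope, share on no gene and Y-linked counts, GC correction by lowess (span 0.5) and leaving out each pig. Added after seeing the data were fits of each title form, of genes with a GC value uncorrected, and without the pigs with the extreme shares on no gene. Tables and figures used Python 3.11.15, numpy 2.4.6, pandas 2.3.3 and matplotlib 3.10.9. Ileum libraries, PCR, histology and growth were not analysed here.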

Additional observations from a re-analysis of the deposited data

Results flagged for a closer look

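Each named gene was checked for a pig far from the rest of its diet, in 252 groups of 5 or 6 pigs, and 26 stood out by Dixon's criterion. Chance would flag about 1 in 20 groups if values were normally distributed and genes independent. CPM need not be so distributed and the genes share the same pigs, so the count is a description. OO + PFA replicate 6 was the highest of its diet for PCK1 (4073 CPM, next pig 1620), INSIG1 (876.4, next 331.5), BSDC1 (146.6, next 91.28) and ITIH1 (227.8). PFA replicate 3 was the highest for ACTR3 (73.11 CPM), PEX11A (24.8), SOD1 (506.7) and PSMD13 (57.37).

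Control replicate 2 was far above its diet for DEF6 (7.401 CPM) and DNAJC17 (40.1), control replicate 4 for CCN1 (51.48) and CXCL2 (2.374), and control replicate 6 for G6PC1 (1401, next 420.8) and BAG3 (74.9). PFA replicate 6 was so for SLC25A25 (22.64 CPM) and BAG3 (65.26), PFA replicate 5 for MMP9 (1.311) and PFA replicate 4 for POSTN (574.0). Among OO pigs, CCN1 stood out in replicate 5 (43.43 CPM), CYP1A2 and MMP9 in replicate 6 (422.9 and 1.931), BAG3 in replicate 2 (52.25) and IGFBP1 in replicate 3 (373.1). In OO + PFA, LPIN1 stood out in replicate 5 (51.77 CPM), and CXCL2 and RPL10 in replicate 3 (8.724 and 550.7).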

How the results depend on the processing

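All 63 named genes kept the sign of the interaction in the alternatives that gave a value, except MLXIPL (-0.00802 with a term for the share on no gene, -0.197 in PigLiv libraries) and CPT1A (0.447 in PL libraries). Interaction calls were 2 with RLE or upper quartile factors, no filter or robust fitting, 3 at an adjusted p of at most 0.1, 6 with GC correction, 150 with DESeq2, 47 in PL libraries, and 0 to 5 with 1 pig left out (5 without OO replicate 5, 4 without PFA replicate 4, 3 without control replicate 1, OO replicate 3 or OO + PFA replicate 4). PFA against control gave 43 calls with DESeq2 and 29 with a GC slope term. OO + PFA against OO gave 31 with DESeq2, 11 with GC correction, 18 in PL libraries, 1 with upper quartile factors, all 24 libraries or a GC slope term, and 0 to 7 with 1 pig left out (7 without OO replicate 5 or OO + PFA replicate 4). Genes at an unadjusted p under 0.05 were 516 with the no-gene term, 266 in PigLiv libraries, 1111 without the extreme pigs and 1410 to 2297 with 1 pig left out. Among genes at that p in both PFA comparisons, opposite signs had 23 with that term, 6 in PigLiv, 321 in PL, 56 without the extreme pigs and 65 to 204 with 1 pig left out, and same signs 159 with a GC slope term, 40 with GC correction, 40 in PigLiv, 38 without the extreme pigs and 12 to 44.

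List medians moved with the no-gene term for fatty acid oxidation (0.0234), cholesterol (0.219), NF-kB (0.178), acute phase (0.445), unfolded protein (0.0489), proteasome (0.0181) and clock genes (0.166). With all 24 libraries ribosomal proteins were at 0.0264 and gluconeogenesis at 0.0442. In PigLiv libraries cholesterol was at 0.149, NF-kB at 0.0978, unfolded protein at 0.0163 and clock genes at 0.150. In PL libraries fatty acid oxidation was at -0.334, fat synthesis at -0.246, acute phase at -0.768, collagens at -0.910, unfolded protein at -1.19, proteasome at -0.425, clock genes at 0.666, gluconeogenesis at 0.504 and bile acids at -0.165. Without the extreme pigs gluconeogenesis was at 0.307, and with 1 pig left out fat synthesis ran from -0.124, without OO + PFA replicate 3, to 0.200, and PPAR-alpha targets from -0.134 to 0.0831, the latter without OO replicate 6. Acute phase proteins were at -0.195 without control replicate 1 and 0.287 without OO replicate 3, and collagens at -0.305 without OO + PFA replicate 2 and -0.0351 without OO + PFA replicate 6. The causes were not tested. No paired analysis was possible because the diets were fed to different pigs.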
